A study of Rattus norvegicus with 11 samples.

Results

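Klf2, Klf4 and Klf5 encode Krüppel-like transcription factors, and their mRNA was followed as the rat embryonic stem cell line DAc2 was turned into hypoblast stem cells, the cHypoSCs of the labels. All rows of the deposited table that the platform annotation pairs with exactly 1 of these symbols were taken: 1 row for Klf2 (probe set 10790670), 2 for Klf4 (10876838, here row 1, and 10873814, row 2) and 2 for Klf5 (10781829, row 1, and 10835837, row 2). These are 5 of 15310 rows with 1 gene symbol, and 3 of 14506 genes. Row 1 is the row of a gene with the higher mean over all arrays.

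RNA of 11 samples was hybridised to Affymetrix Rat Gene 1.0 ST arrays, 1 array per sample. The feeder-free stem cells grew on laminin in N2B27 medium with 3 µM CHIR99021 (a GSK3 inhibitor), 2 µM PD0325901 (a MEK inhibitor) and 5 ng/mL BMP4. The feeder stem cells grew on mouse embryonic fibroblasts in the same base medium with 3 µM CHIR99021, 0.5 µM PD0325901 and no BMP4 named in the labels. Both were then moved to a medium for rat multipotent adult progenitor cells, which holds PDGF, EGF, LIF and 2% serum, and were sampled at days 0, 7, 17 and 32, day 0 being the stem cells. Without feeder cells there was 1 array for day 0 and a pair for each later day; with feeder cells every day has a single array, whose value has no spread of its own. "With" and "without feeder cells" name the culture in which the stem cells started, since the labels do not say whether feeder cells were carried through the conversion. All samples come from 1 cell line. The labels name biological replicates for the feeder-free pairs but do not state that they were grown separately, so the spread within a pair may be technical. The p values measure only the spread between arrays that each fit leaves over. The feeder layer, the BMP4 and the dose of PD0325901 change together between the arms, and their effects cannot be told apart.

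Krüppel-like factors bind GC-rich and CACCC sequences through zinc fingers at the C-terminal end. In rodent embryonic stem cells Klf2, Klf4 and Klf5 act in the network that maintains naive pluripotency, with partly overlapping roles, and Klf4 is a known target of LIF and STAT3. In the embryo Klf5 is known for roles in the trophectoderm and the inner cell mass, and Klf2 and Klf4 are also known from endothelium and epithelia.

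Values are log2 expression values, so that a difference of 1 is a 2-fold change. All columns had a median of 8.97. As a background, 1240 olfactory and vomeronasal receptor genes had a median of 6.37 and a 95th percentile of 8.10, and every value of the 5 rows was above 10. The labelled identity was checked with markers: 11 of 13 listed hypoblast genes were measured, among them Gata4, Gata6 and Sox17, and their mean level went from 9.58 at day 0 to 13.16, 13.71 and 13.67 at days 7, 17 and 32 in the feeder-free arm. In the feeder arm it was 9.43, 10.77, 13.35 and 13.44, so by this mean the feeder array of day 7 lay between the stem cells and the later days. On that array Sox7 (9.12), Foxa2 (9.10) and Hnf4a (8.79) lay near or below their day 0 values (9.21, 8.95 and 9.54). The other measured hypoblast genes lay higher than at day 0. The mean of 14 fibroblast genes, all measured, was between 8.03 and 8.08 in the feeder-free arm and 9.76, 9.01, 8.51 and 8.26 in the feeder arm. S100a4 went against the rest of this list and raised the later feeder means, at 7.5, 10.1, 11.1 and 9.0 in the feeder arm. All other listed fibroblast genes were lower on each later feeder array than at day 0. The mean of 8 measured trophoblast genes (of 9) was highest at day 7, at 11.47 in the feeder-free arm and 10.18 in the feeder arm, and between 8.99 and 9.54 on all other days. From day 0 to day 7 Cdx2 went the other way, from 11.1 to 9.7 without feeder cells and from 13.1 to 9.5 with them. Tfap2c went from 12.5 to 12.3 and from 12.1 to 12.2 in the respective arms. The other measured trophoblast genes were higher at day 7 than at day 0 in both arms. In such bulk samples fewer cells of a type and less RNA per cell cannot be told apart.

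The 3 genes moved differently. Klf2 fell 8.37-fold from day 0 to day 32 in the fit over both cultures. It had already fallen by day 7 in the feeder-free arm, whereas in the feeder arm the fall lay between days 7 and 17. Both rows of Klf4 rose, 1.85-fold and 2.10-fold, and did so in each arm. Klf5 was not called from day 0 to day 32 in the fit over both cultures. Its row 1 rose 1.59-fold in the feeder-free arm and ended 1.26-fold higher in the feeder arm, and both rows had a trough on the single feeder array of day 7. A change was called where its limma p, adjusted by the Benjamini-Hochberg method over all 15310 rows, was under 0.05.

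**Figure D1:**
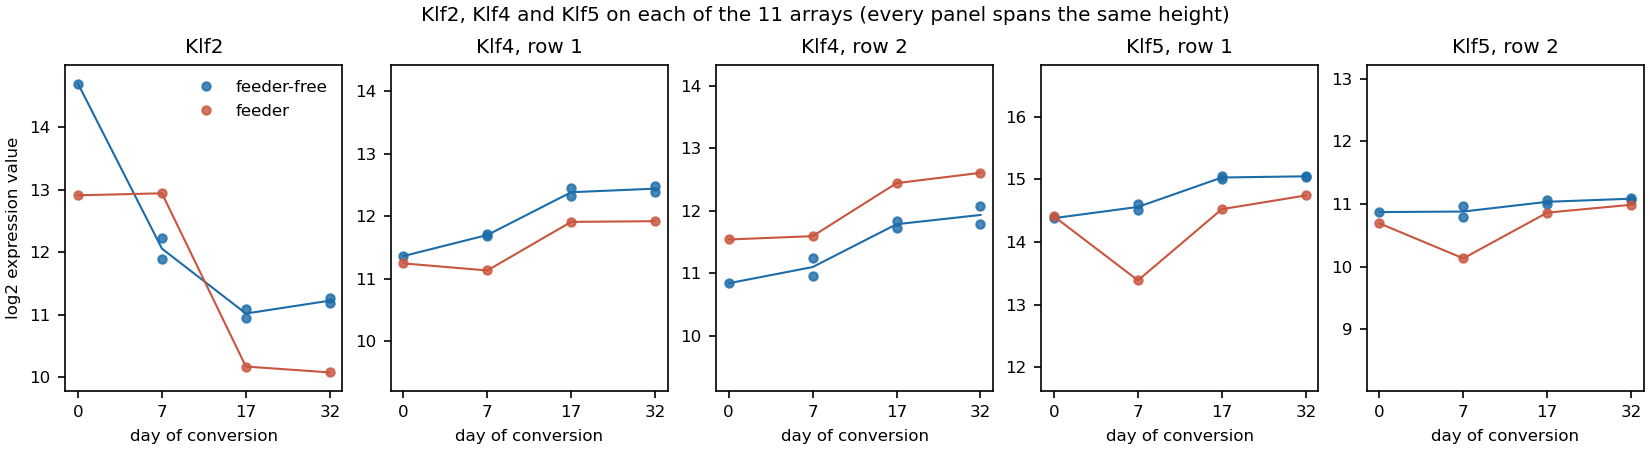
Log2 expression value of each of the 5 rows on every array against the day of conversion, days drawn at equal distance, with feeder-free arrays in blue and feeder arrays in red; points are arrays and lines join the means of each day. Klf2 starts at 14.69 without feeder cells and at 12.91 with them, and ends near 11.2 and 10.1, while both Klf4 rows end above their starting values and Klf5 row 1 dips to 13.39 on the feeder array of day 7.

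Klf2 is a factor of the naive state whose mRNA is induced through the MEK5-ERK5-MEF2 route in endothelial cells. Without feeder cells its level was 14.69 at day 0, 11.89 and 12.22 at day 7, 11.09 and 10.95 at day 17, and 11.26 and 11.19 at day 32. The day 0 array stood above all others, and the pairs of the later days were close (SD 0.23, 0.10 and 0.05, n = 2 each). In the feeder arm the level was 12.91 at day 0, 12.94 at day 7, 10.17 at day 17 and 10.08 at day 32, so the first 2 arrays stood high and the last 2 low, with nothing between. Both late feeder arrays lay below every feeder-free array.

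The fit with terms for day and culture (6 residual degrees of freedom) assumes the same change between days in both arms. A difference between the arms in a change counts as spread in it. By this fit Klf2 changed by -3.06 ± 0.49 (log2, SE) from day 0 to day 32, with an adjusted p of 0.00219. In that comparison 30.7% of all rows were called, against 3 of the 5 rows of the 3 genes, and the change of Klf2 ranked 193 of 15310 by size. From day 7 to day 17 the change was -1.61 ± 0.44 (adjusted p = 0.0466), in a comparison that called 12.4% of all rows. This call was lost, with adjusted p values of 0.0533 to 0.154, when either day 17 array or either day 32 array of the feeder-free arm, the feeder array of day 17 or that of day 32, or the second feeder-free array of day 7 was left out. Without the feeder array of day 7 the change of Klf2 was -0.91 (adjusted p = 0.0169). From day 0 to day 7 the change was -1.56, with an adjusted p of 0.0656 and a 95% interval of -2.68 to -0.44, and limma called none of the 5 rows against 15.6% of all rows; Klf2 alone of the 5 had an unadjusted p under 0.05, at 0.0120. For Klf2 it was -2.35 without the feeder array of day 7 (adjusted p = 4.89e-05) and -2.22 without that of day 0 (adjusted p = 0.0293). From day 17 to day 32 the interval was -0.89 to 1.10, and the lowest unadjusted p of the 5 rows was 0.195 (Klf4 row 2). In that last comparison 0% of rows were called, also for the whole table, where 1118 rows had an unadjusted p under 0.05.

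The arms differed in when Klf2 fell, which a second fit measured with a mean for each of the 8 groups. Its 3 residual degrees of freedom all come from the feeder-free pairs, and the single arrays are assumed to vary like them. From day 0 to day 7 Klf2 fell by 2.63 ± 0.15 in the feeder-free arm (adjusted p = 5.8e-09), in a comparison in which 36.5% of all rows were called. In the feeder arm the change was 0.03, with a 95% interval of -0.33 to 0.39, where 14.4% of all rows were called. The difference between these changes, feeder minus feeder-free, was 2.67 ± 0.22 (adjusted p = 1.48e-06), and 21.6% of all rows were called for such a difference.

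From day 7 to day 17 the order was the opposite. Klf2 fell by 1.04 ± 0.12 in the feeder-free arm (adjusted p = 2.86e-05, 23.1% of rows called) and fell by 2.77 ± 0.17 in the feeder arm (adjusted p = 2.66e-08, 30.9% called). The difference between the changes was -1.73 ± 0.21 (adjusted p = 3.8e-05, 19.1% called). It shares the day 7 arrays with the difference for the first 7 days, so the pair are not independent. Over the whole course Klf2 fell by 3.47 ± 0.15 in the feeder-free arm and by 2.83 ± 0.17 in the feeder arm, in comparisons that called 39% and 33% of all rows. For that difference, 0.64 with an interval of 0.16 to 1.12, the adjusted p was 0.0949, and limma called none of the 5 rows against 10.3% of all rows, 1 of them (Klf2) having an unadjusted p under 0.05. It passed the threshold, at 0.0493, without either feeder-free array of day 7.

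The stem cells themselves differed in Klf2. At day 0 the feeder array was lower than the feeder-free array (difference -1.78 ± 0.17, adjusted p = 5.17e-06), where 31.9% of all rows were called. At day 7 it was 0.88 ± 0.15 higher (adjusted p = 0.000231, 41.7% called), and at days 17 and 32 it was lower again, with differences of -0.85 and -1.15 (28.5% and 26.8% called). The sign of the culture difference thus depended on the day. In the fit over all days it was -0.65 ± 0.34 with an adjusted p of 0.170, where 34.1% of all rows were called. Without the feeder array of day 7 this difference of Klf2 was -1.21 (adjusted p = 0.000296).

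In the order of the 8 levels, the feeder arrays of days 7 and 0 were 0.03 apart and those of days 17 and 32 were 0.09 apart, less than the spread of the feeder-free pair of day 7 (SD 0.23, n = 2). The feeder-free means of days 32 and 17 were 0.21 apart, with a 95% interval of -0.05 to 0.46. The other neighbours were at least 0.83 apart. The fall of the feeder-free arm in the first 7 days went with a rise of the hypoblast marker mean by that day, and the feeder array of day 7, where Klf2 stood at its starting level, had a hypoblast mean of 10.77. Whether the cell makeup has a part in the Klf2 values was not tested.

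**Figure D2:**
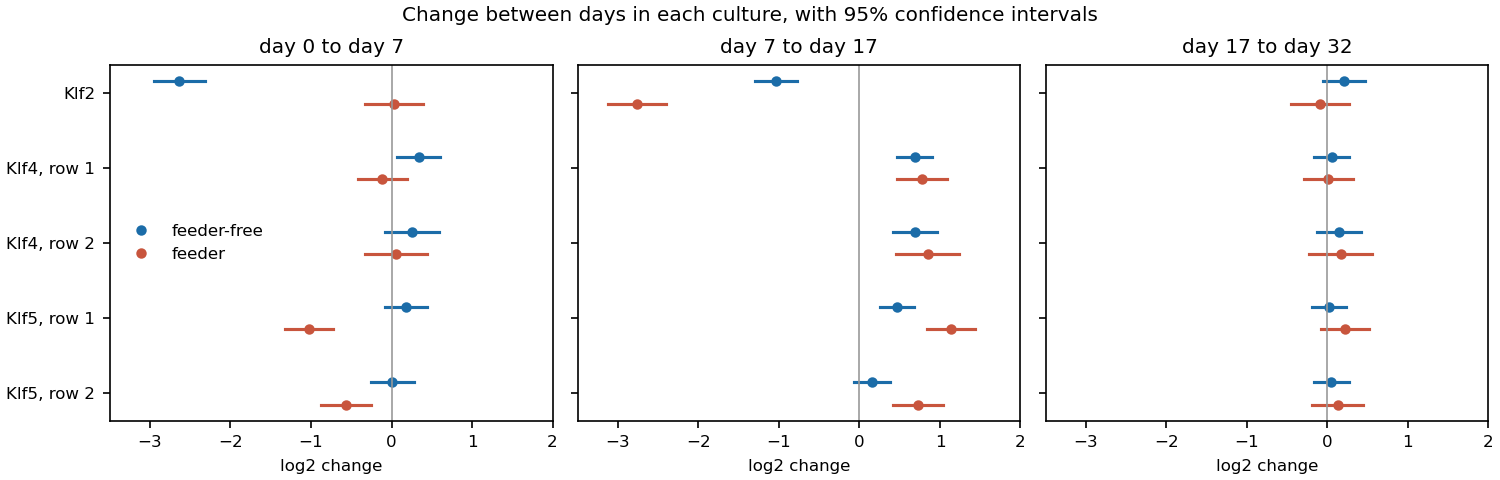
Log2 change of each row in 3 intervals (horizontal axis, one panel per interval), in the feeder-free arm (blue) and the feeder arm (red), with bars for the 95% confidence interval from the fit with a mean for each group. Klf2 lies at -2.63 without feeder cells and at 0.03 with them in the first interval, the Klf4 rows lie near 0.7 to 0.8 in both arms in the second, and all intervals of the third cross 0.

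Klf4, a reprogramming factor and a target of LIF signalling, rose in both arms after day 7. Row 1 read 11.36 at day 0, 11.72 and 11.68 at day 7, 12.32 and 12.45 at day 17, and 12.49 and 12.39 at day 32 without feeder cells. With feeder cells it read 11.25, 11.13, 11.91 and 11.92. In each arm the arrays of days 17 and 32 lay above those of days 0 and 7. How many of all rows separate in this way was not counted. Row 2 read 10.84 at day 0, 10.96 and 11.25 at day 7, 11.84 and 11.73 at day 17, and 12.08 and 11.79 at day 32 without feeder cells, and 11.54, 11.59, 12.44 and 12.61 with them. Here too the late arrays of each arm lay above the early ones.

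From day 7 to day 17 the change over both cultures was 0.71 ± 0.10 by row 1 (adjusted p = 0.00628) and 0.74 ± 0.11 by row 2 (adjusted p = 0.00763), and with Klf2 these made 3 called rows of 5, against 12.4% of all rows. From day 0 to day 32 it was 0.89 ± 0.11 by row 1 and 1.07 ± 0.12 by row 2, with adjusted p values of 0.000776 and 0.000545. Without the culture term in the fit, the adjusted p of Klf4 from day 7 to day 17 was 0.128 for row 1 and 0.232 for row 2. In the first 7 days the intervals were -0.12 to 0.39 and -0.10 to 0.46. In the feeder-free arm alone row 1 changed by 0.34 ± 0.12 in these days (adjusted p = 0.0477), a call lost in 10 of 18 alternatives, among them that without either array of day 7. The change of row 2 there was 0.26, with an interval of -0.08 to 0.59.

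The arms did not differ in the size of the Klf4 rise by any test that passed. From day 7 to day 17 row 1 rose by 0.68 ± 0.10 without feeder cells and 0.78 ± 0.14 with them, and row 2 by 0.68 ± 0.13 and 0.85 ± 0.18. For the whole course the difference between the changes had an interval of -0.81 to 0.00 by row 1 and -0.54 to 0.49 by row 2, so these arrays do not show that the arms rose alike.

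The rows of Klf4 gave opposite answers on which culture had more. Over all days row 1 was lower with feeder cells, by -0.44 ± 0.08 (adjusted p = 0.00243), and row 2 was higher, by 0.63 ± 0.08 (adjusted p = 0.000573). The mean of both rows differed by 0.09 and was not called. The correlation of the rows over the 11 arrays was 0.45, against 0.96 for the rows of Klf5. Row 1 minus row 2 was between 0.41 and 0.76 on the feeder-free arrays (mean 0.56 ± 0.14, SD, n = 7) and between -0.68 and -0.29 on the feeder arrays (mean -0.49 ± 0.16, SD, n = 4), with no overlap. The rows thus do not settle the direction of the culture difference of Klf4. How many other genes with several rows have a row difference that separates the arms was not counted.

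The row difference of Klf4 did not shrink along the feeder arm. It was -0.29 at day 0, -0.46 at day 7, -0.53 at day 17 and -0.68 at day 32, 1 array each, while the fibroblast mean of the same arrays went from 9.76 to 8.26. How RNA of the mouse feeder cells reads on these rat arrays was not tested, for the fibroblast genes or for either Klf4 row. Where the probes of each row lie in the gene was not analysed here, and neither the array annotation nor the cells behind the row difference was tested.

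**Figure D3:**
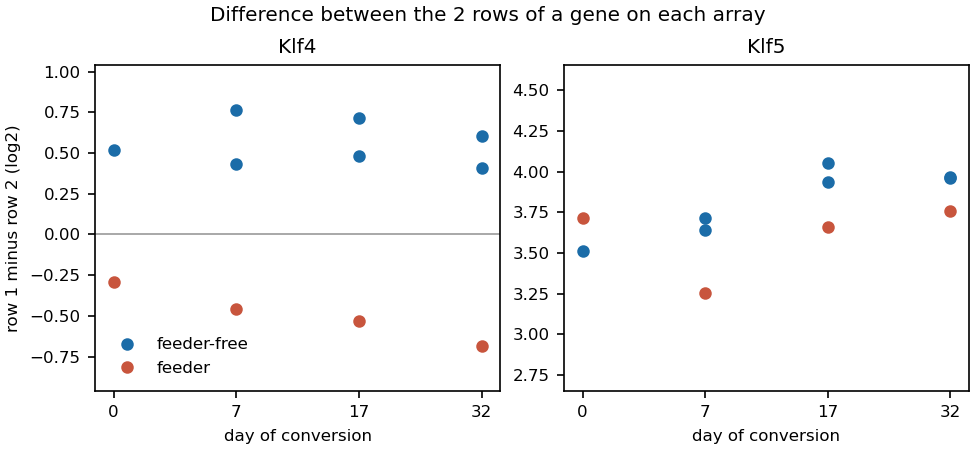
Row 1 minus row 2 on the log2 scale for Klf4 (left) and Klf5 (right) on each array against the day of conversion, feeder-free arrays in blue and feeder arrays in red. For Klf4 the feeder-free arrays all lie above 0, from 0.41 to 0.76, and the feeder arrays all below, whereas for Klf5 the arms overlap between 3.25 and 4.05.

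Klf5 is a factor of the pluripotency network that is also required early in the trophectoderm lineage. Row 1 read 14.38 at day 0, 14.51 and 14.61 at day 7, 15.05 and 15.01 at day 17, and 15.06 and 15.04 at day 32 without feeder cells. In the feeder arm it read 14.41, 13.39, 14.52 and 14.74, so the array of day 7 was the lowest of all 11. Row 2 read 10.87 at day 0, 10.80 and 10.96 at day 7, 11.001 and 11.07 at day 17, and 11.10 and 11.07 at day 32 without feeder cells, and 10.69, 10.13, 10.86 and 10.99 with them. Its lowest array was the same one.

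The trough passed the test in both rows of Klf5. In the feeder arm row 1 fell by 1.02 ± 0.14 from day 0 to day 7 (adjusted p = 0.000177) and row 2 by 0.56 ± 0.14 (adjusted p = 0.0181). From day 7 to day 17 the rows rose by 1.14 ± 0.14 (adjusted p = 2.06e-05) and 0.73 ± 0.14 (adjusted p = 0.00135), and all 5 rows were called in that comparison, against 30.9% of all rows. In the feeder-free arm row 1 did not pass in the first 7 days (0.18, interval -0.08 to 0.44) and rose by 0.47 ± 0.10 from day 7 to day 17 (adjusted p = 0.00336), while row 2 changed by 0.01 and 0.16 in these intervals. The difference between the arms in the first 7 days was -1.20 ± 0.18 for row 1 (adjusted p = 0.00027) and -0.57 ± 0.19 for row 2 (adjusted p = 0.0492), the latter lost in 7 of 14 alternatives, among them those without the second feeder-free array of day 7 or without any 1 of the feeder-free arrays of days 17 and 32 (adjusted p = 0.0585 to 0.0752).

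At day 7 the feeder array was lower than the feeder-free pair by -1.17 ± 0.12 in row 1 (adjusted p = 3.31e-06) and -0.75 in row 2 (adjusted p = 0.000262), and all 5 rows were called for the culture difference of that day, against 41.7% of all rows. Without the first feeder-free array of day 7 that of Klf4 row 2 lost its call (0.35, adjusted p = 0.122). At day 0 the Klf5 differences were 0.03 and -0.18, with intervals of -0.27 to 0.33 and -0.49 to 0.13. At day 17 row 1 was still 0.51 lower (difference -0.51, adjusted p = 0.00598), and at day 32 the difference was -0.31 with an adjusted p of 0.0778. These values of day 7 all rest on 1 feeder array. On it the trophoblast mean was 10.18 against 11.47 in the feeder-free pair, and the fibroblast mean 9.01 against 8.03. The part of other cells in the Klf5 trough was not tested.

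In the fit over both cultures Klf5 was not called between any of these days: from day 7 to day 17 row 1 changed by 0.69 ± 0.20 with an adjusted p of 0.0545, and from day 0 to day 32 by 0.46 with a 95% interval of -0.04 to 0.97. Without the feeder array of day 7 the last change of Klf5 row 1 was 0.50 with an adjusted p of 0.00751, and without that of day 0 it was 0.79 with an adjusted p of 0.0423. Within the feeder-free arm row 1 rose by 0.67 ± 0.12 over the whole course (adjusted p = 0.000442), and in the feeder arm the change was 0.33 with an adjusted p of 0.0829. The feeder arrays were lower over all days by -0.52 ± 0.15 in row 1 (adjusted p = 0.0288) and -0.31 ± 0.11 in row 2 (adjusted p = 0.0521). That of Klf5 row 2 was called in 4 of 18 alternatives, among them that without the feeder array of day 32 (-0.38, adjusted p = 0.0462). The call of row 1 was lost without either feeder-free array of day 7 or of day 17, or without the feeder array of day 17, with adjusted p values of 0.0505 to 0.0781, and without the feeder array of day 7 the difference of Klf5 row 1 was -0.29 (adjusted p = 0.0399).

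The 250 bases before the annotated start of Klf5 are shown as the window searched for the STAT element and for motifs that Krüppel-like factors bind; they lie on the plus strand of GRCr8 at chr15:82471831-82472080, from RefSeq.

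Klf5: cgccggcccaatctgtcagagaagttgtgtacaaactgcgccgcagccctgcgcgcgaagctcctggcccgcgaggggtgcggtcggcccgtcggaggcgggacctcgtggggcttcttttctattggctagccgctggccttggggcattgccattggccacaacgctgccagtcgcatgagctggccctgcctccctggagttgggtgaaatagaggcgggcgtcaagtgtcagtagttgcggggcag

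A search of both strands for the STAT element TTCNNNGAA, the GC box GGGCGG and the CACC box CCACCC found 0 matches in this window, and no base is therefore capitalised. The window before the annotated start of Klf4, searched in the same way and not printed, held 1 match for the STAT element, 126 bases before that start, and 0 for the other motifs; Klf2 was not searched. Of 33469 promoter windows of the same length, 7.67%, 30.5% and 26.1% hold the 3 motifs. These exact letters are absent from this window, which does not show whether a factor binds in it or elsewhere at Klf5. Looser forms of the motifs were not searched.

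The genes with the pattern most like each member were taken over the 8 group means, among 1559 genes whose means span at least 2. For Klf2 these were Ift57, a gene of intraflagellar transport (r = 0.99), Spa17, Psrc1, Trim44 and Anxa11, an annexin (r = 0.98). Ift57 read 10.86 at day 0 and 9.02 at day 7 without feeder cells, and 9.64 and 9.52 in the feeder arm. For Klf4 row 1 they were the kinase gene Prkd3 (r = 0.98), Abhd10, Ikbip, Htra4 and Fbp2, a fructose bisphosphatase (r = 0.97). For Klf5 row 1 they were Reep6 (r = 0.96), the neutral amino acid transporter Slc1a4, Ica1, Asrgl1 and the cationic amino acid transporter Slc7a1 (r = 0.93). Slc7a1 read 13.36 at day 0, 12.54 at day 7 and 14.53 at day 32 in the feeder arm. Over the 11 arrays 4, 4 and 5 of these genes were again among the first 5. Among the members, with row 1 taken for Klf4 and Klf5, the correlation over the 8 means was -0.70 for Klf2 with Klf4, -0.50 for Klf2 with Klf5 and 0.85 for Klf4 with Klf5. Row 2 of Klf4, which had a correlation of 0.47 with row 1 over the same means, was not compared with the other members. These points share arrays and days, and the correlations are a description.

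Other Krüppel-like and Sp factors fell more often than they rose. From day 0 to day 32, 17 of 23 listed were measured, 1 rose (Klf1) and 7 fell, with a median change of -0.15 against 0.05 for all rows. Over all rows 17.1% rose and 13.6% fell in that comparison, and 6.45% rose and 9.18% fell in the first 7 days. Klf9 changed by -2.61 ± 0.32, Klf12 by -2.59 ± 0.27 and Klf7 by -1.72 ± 0.39. The mean of Klf12 over all arrays, 7.98, lay under the background 95th percentile of 8.10. For Klf7 the change was -2.61 in the feeder-free arm and -0.67 in the feeder arm. In the first 7 days 3 fell, with changes of -1.73 for Klf12, -0.71 for Klf16 and -0.61 for Sp4.

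Genes of the LIF and STAT3 route, which is known to sustain Klf4, mostly rose: of 14 measured (16 listed), 8 rose and 2 fell from day 0 to day 32, against 17.1% and 13.6% of all rows, with a median of 0.83 against 0.05. Socs3, a feedback inhibitor and STAT3 target, changed by 3.62 ± 0.29, and the oncostatin receptor gene Osmr by 2.42 ± 0.55. Tfcp2l1, a STAT3 target of naive cells, changed by -2.40 ± 0.48, and the other fall was that of the kinase gene Pim1, at -2.24. By day 7 Socs3 had already changed by 3.35, an interval in which neither Klf4 row passed the test over both cultures. In the feeder-free arm Socs3 changed by 4.03 in these days and the Klf4 rows by 0.34 and 0.26. In the feeder arm they changed by 2.50, -0.11 and 0.05. A link between these changes was not tested. Osmr changed by 3.54 in the feeder-free arm and 0.38 in the feeder arm in these days.

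The naive pluripotency partners of the 3 factors mostly fell, as Klf2 did. Of 12 measured (17 listed), 1 rose (Nr0b1) and 7 fell from day 0 to day 32, against 17.1% and 13.6% of all rows, with a median of -1.56 against 0.05. Nr0b1 changed by 0.31, and its mean over all arrays, 7.99, lay under the background 95th percentile of 8.10. Nanog changed by -6.20 ± 0.73, the growth factor gene Gdf3 by -3.83 ± 0.73 and Sox2 by -3.63 ± 0.46. In the feeder-free arm 10 of the 12 fell and 1 rose (Lin28a) by day 7, where 36.5% of all rows were called, with a median of -1.80. In the feeder arm 2 fell (Lin28a and Tbx3) and 1 rose (Fgf4), with a median of -0.08, and 14.4% of all rows were called. Sox2 changed by -2.87 and -0.24 in the respective arms and Tfcp2l1 by -2.80 and -0.20. Counts of these lists are descriptions, and the difference between the arms was not tested for the list.

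**Figure D4:**
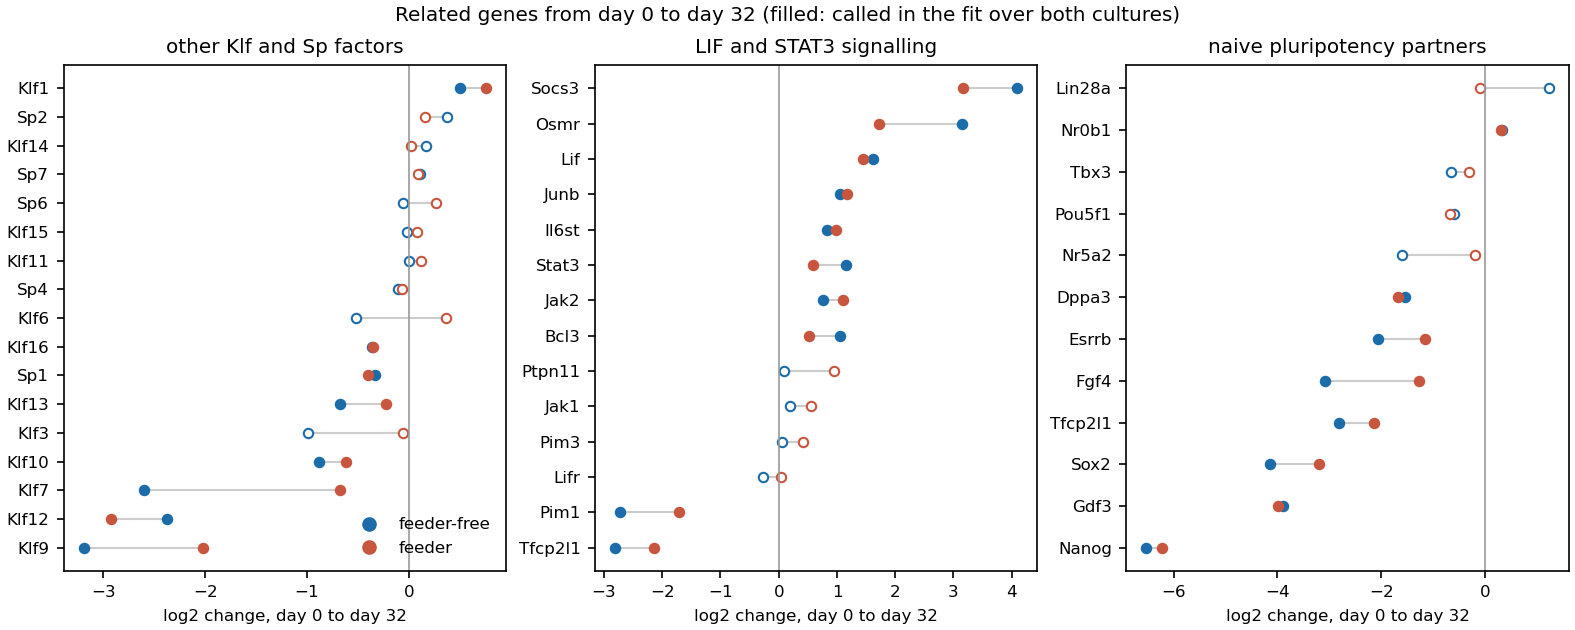
Log2 change from day 0 to day 32 of each measured member of 3 lists (one panel per list), in the feeder-free arm (blue) and the feeder arm (red), with filled points for genes called in the fit over both cultures and lines joining the arms of a gene. Nanog and Sox2 lie far to the left in both arms, Socs3 lies to the right near 4.09 and 3.17, and most Krüppel-like and Sp factors lie near or below 0.

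ERK feedback and immediate early genes, read because the labels name no MEK inhibitor in the conversion medium, moved in the first 7 days: 8 of 16 rose and 1 fell (Etv5), against 6.45% and 9.18% of all rows, with a median of 1.12 against -0.04. Egr1 changed by 2.44 and Fosl1, an AP-1 gene, by 2.38. By day 32, 4 were higher than at day 0 and 1 was lower, against 17.1% and 13.6% of all rows, with a median of -0.13. The feedback-linked factor Etv5 changed by -3.76 ± 0.33, Phlda1 by 1.39 ± 0.08 and Fos by 1.18 ± 0.16; the other rises were those of Egr1 and Spry2.

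Of the MEK5-ERK5-MEF2 route, 7 of 8 genes were measured, 2 rose and 1 fell by day 32, with a median of 0.32; 30.7% of all rows were called, and a share of 3 in 7 is not far from that. The kinase gene Map3k2 changed by 0.68 and Mef2a by 0.56, and Map3k3, a kinase gene that acts at the same step, by -0.40. The only call of the first 7 days was Mef2a, at 0.48, where 15.6% of all rows were called. Of the ubiquitin ligase genes reported to act on Krüppel-like proteins, 6 of 7 were measured. Of these 1 rose and 2 fell by day 32, against 17.1% and 13.6% of all rows, with a median of -0.12: Btrc changed by -1.29, Vhl by -1.02 and Fbxo22 by 0.71. In the first 7 days Btrc changed by -1.15 and Fbxo32 by 1.13, and the other call was Fbxo22, at 0.40, while 6.45% of all rows rose and 9.18% fell. The mean of Fbxo32 over all arrays, 7.67, lay under the background 95th percentile of 8.10.

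Of reported targets outside pluripotency, 12 of 13 were measured, and 1 rose and 4 fell by day 32, against 17.1% and 13.6% of all rows, with a median of -0.22. Thbd, the thrombomodulin gene known as a Klf2 target in endothelium, was the rise, at 3.87 ± 0.68, while Klf2 itself fell. It rose by 4.42 in the feeder-free arm and changed by 0.42 in the feeder arm in the first 7 days. Cdx2, a trophectoderm regulator that also stands in the trophoblast list, changed by -2.67, the keratin gene Krt19 by -2.20, S1pr1 by -1.86 and Pdgfa by -1.61. For Cdx2 the change of the first 7 days was -1.43 without feeder cells and -3.64 with them. Of 6 measured endothelial markers (7 listed), 3 rose and 2 fell in the feeder-free arm in these days, where 15.7% of all rows rose and 20.8% fell. Cdh5 went from 8.97 to 13.63, while Pecam1 went from 12.29 to 10.89 and Tie1 from 11.06 to 9.06.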

How the data were processed

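The deposited values are log2 expression values of 29214 rows on 11 arrays. The authors' method was RMA, per the submitters' processing notes, with no version named. The step that set a common column median is not given in the sources used here. RMA compresses low values. Scanner files were not used, so detection and saturation per probe were not examined. The number of arrays limits the precision. The platform annotation paired 15310 rows with 1 symbol, 323 with several and 13581 with none (unnamed here); 15279 matched RefSeq by gene identifier and 0 symbols differed. No row was filtered.

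Groups follow the labels. limma 3.58.1 (R 4.3.3) with lmFit and eBayes was fitted to all 11 arrays with terms for day and culture, and again with a mean per group. P values were adjusted over 15310 rows and called under 0.05. Differences are later minus earlier and feeder minus feeder-free. The calculation was tested on simulated data. The members and gene lists were chosen with earlier results of these data known. Named genes are, by rule, the 5 genes most like each member and, per list, up to 3 called genes with the largest change from day 0 to day 32 and up to 2 from day 0 to day 7. Members of small counts (Klf1, Sp4, Pim1, Nr0b1, Lin28a, Tbx3, Fgf4, Spry2, S1pr1, Pdgfa) were named after their values were seen. So were the markers Cdh5, Pecam1, Tie1, Gata4, Gata6, Sox17, Sox7, Foxa2, Hnf4a, S100a4 and Tfap2c. Other genes stand for their brightest row. Tried as alternatives were leaving out the dimmest 25% of rows, all rows, 1 row or the mean of the rows per gene, further quantile normalization, median centring, eBayes with trend and robust, array weights, other models, a replicate block and leaving out each array. That of days 17 and 32 alone was added after seeing the data. Extraction, hybridisation and scan batches are not given in the sources used here. Figures were drawn with matplotlib 3.10.9.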

Additional observations from a re-analysis of the deposited data

Results flagged for a closer look

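For 3 rows, 2 of them of Klf5, the change in the feeder arm differed from that in the feeder-free arm in each of 2 intervals. This was by the test of the difference itself. Of all rows, 21.6% (day 0 to day 7) and 19.1% (day 7 to day 17) were called for such a difference. For Klf2 the difference, feeder minus feeder-free, was 2.67 from day 0 to day 7 (adjusted p = 1.48e-06) and -1.73 from day 7 to day 17 (adjusted p = 3.8e-05). For Klf5 row 1 it was -1.20 (adjusted p = 0.00027) and 0.67 (adjusted p = 0.0124) in these intervals. For Klf5 row 2 it was -0.57 (adjusted p = 0.0492) and 0.57 (adjusted p = 0.0359); in the first interval this call was lost in 7 of 14 alternatives, and in the second in 4 of 15, among them those without the second feeder-free array of day 7 (0.49) and the first of day 17 (0.54). All 6 values use the single feeder array of day 7, and the spread behind them comes from the feeder-free pairs alone. No group held enough arrays for a search for outlying arrays.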

How the results depend on the processing

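Of 1623 comparisons of a result with an alternative, 1517 kept direction and side of the threshold, 46 lost the call, 39 gained it and 21 changed sign. The falls of Klf2 and the rises of Klf4 from day 0 to day 32 were called in all alternatives that gave a value except Klf4 row 2 without a culture term.

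Klf2 from day 0 to day 7 was called with array weights (-2.08), the 8-group fit (-1.30) and the feeder-free arrays alone (-2.63). Klf2 from day 7 to day 17 lost its call with all rows, the block on replicate number and no culture term, at -1.61 each. The culture difference of Klf2 was called with array weights (-0.93) and without the feeder array of day 7 (-1.21), and that of Klf5 row 2 in 4 of 18 alternatives (adjusted p down to 0.0226).

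Klf4 row 1 from day 7 to day 17 lost its call without the culture term (0.71), and gained one from day 0 to day 7 in the feeder-free arm by itself (0.34).

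Klf5 row 1 from day 7 to day 17 was called with the lowest 25% of rows left out (0.69), array weights (0.50), the 8-group fit (0.80) and the feeder-free arm by itself (0.47). From day 0 to day 32 it was called with the 8-group fit (0.50) and the feeder-free arrays (0.67), and from day 0 to day 7 with the 8-group fit (-0.42). Its culture difference lost the call with the replicate block (-0.49).

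With 1 array left out, Klf2 ranged from -2.35 to -0.80 (day 0 to day 7), -1.97 to -0.91 (day 7 to day 17) and -1.21 to -0.37 (culture). Klf4 row 1 ranged from -0.082 to 0.32 from day 0 to day 7. Klf5 row 1 ranged from -0.68 to 0.021, 0.40 to 0.83, and 0.10 to 0.79 from day 0 to day 7, day 7 to day 17 and day 0 to day 32, and from -0.66 to -0.29 for culture.

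Of the 5 rows, 1 (array weights), 3 (8-group fit) and 2 (feeder-free arm by itself) were called from day 0 to day 7, 5 (8-group fit) and 0 (no culture term) from day 7 to day 17, and 5 (8-group fit) from day 0 to day 32. With 1 array left out these counts were 0 to 1, 2 to 4 and 3 to 5, and 2 to 4 for culture. In the main fit 15.6%, 12.4%, 30.7% and 34.1% of all rows were called in these comparisons. The share under each alternative is not given here, so these counts are not a result about the 3 genes.

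The mean of the rows of a gene turned the culture difference of Klf4 row 1 to 0.093 over all days and to 0.29, 0.091 and 0.077 at days 0, 17 and 32, and that of Klf5 row 1 at day 0 to -0.076. The other changes of sign were of small values that were not called. Quantile normalization gave -0.033 for the difference between the arms in Klf5 row 2 from day 0 to day 32. Median centring gave -0.075 for Klf5 row 2 in the feeder-free arm from day 0 to day 7, -0.0044 for the difference between the arms in Klf4 row 1 from day 7 to day 17, and -0.023 for Klf5 row 1 between the cultures at day 0. The feeder-free arm by itself gave 0.18 and 0.0086 for the Klf5 rows from day 0 to day 7, and the replicate block gave -0.025 for Klf5 row 2 there. With 1 array left out, Klf5 row 2 ranged from -0.32 to 0.025 in these days and from -0.075 to 0.092 in the feeder-free arm, Klf2 from -0.00067 to 0.33 from day 17 to day 32, the Klf5 rows from -0.013 to 0.13 and -0.021 to 0.14 there, and the difference between the arms in Klf4 row 2 from -0.17 to 0.12 from day 0 to day 32. The causes were not tested.

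The replicate numbers of the feeder-free pairs did not mark shared deviations (correlations of 0.04, -0.20 and -0.10 between days), so the block is no pairing. The planned comparison of protein sequences was not run. Signal over background per probe was not measured.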
